A study of Mus musculus with 6 samples.

Results

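The genes described here make the programmed DNA breaks that start meiotic recombination in mice, choose where they fall, or read the marks at those places. There are 8: Spo11, Mei1, Mei4, Rec114, Ccdc36 (also named Iho1) and Ankrd31 for the break machinery, and Prdm9 and Zcwpw1 for the sites. The rule that picks them is a list of names and uses no measured value, although the list was drawn up with earlier results of these data known. Of the 8, 7 were matched to a row among the 22219 gene symbols of the table. Ankrd31 was not matched under any name in the reference tables and was not analysed here. RNA was sequenced from whole testes of mice on day 10, with 3 libraries from control animals and 3 from a conditional knockout of Eif5 (cKO). In the cKO, floxed Eif5 alleles were combined with a Stra8-Cre transgene, so that the Cre is driven by the promoter of a gene that spermatogonia switch on as they differentiate, and somatic cells of the testis keep the gene. The labels do not state the strain, the genotype of the controls or whether a library came from 1 animal or from a pool. Effects of the Cre transgene or of the floxed alleles alone therefore cannot be told apart from the loss of Eif5. The comparison asked how loss of eIF5, a factor of translation initiation, changed the testis transcriptome.

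In meiosis each chromosome pair is joined through breaks that the cell makes in its own DNA. SPO11, a relative of the topoisomerases, cuts the DNA together with TOPOVIBL. REC114, MEI4, IHO1 and MEI1 are needed for it to do so on the chromosome axes, and ANKRD31 belongs to the same machinery. PRDM9 binds DNA through an array of zinc fingers and methylates histone H3 at those places, which marks the hotspots, and ZCWPW1 reads the double methylation mark that PRDM9 leaves. In the mouse testis these genes are switched on as spermatogonia enter meiosis, and in young animals the first wave of germ cells passes through this step together.

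Between 32555443 and 48409550 reads per library were recovered from the deposited values, and 20841 to 21582 genes were detected. The groups lay apart on the first principal component of the log2 values (39.96% of the variance). Eif5 itself had 11964, 10551 and 11187 normalised read counts (reads divided by 1 size factor per library) in control replicates 1 to 3 and 8548, 8982 and 9574 in cKO replicates 1 to 3. All 3 cKO libraries lay below all 3 controls. This came to a log2 fold change of -0.31 with an SE of 0.0947 (limma adjusted p = 0.024). The call of Eif5 ended without cKO replicate 1 (adjusted p = 0.133) or cKO replicate 2 (adjusted p = 0.0888) and with scaling to markers of undifferentiated spermatogonia (-0.36, adjusted p = 0.0507). Scaled to the germ cell genes Ddx4 and Dazl, which moved the median of all tested genes to 0.71, Eif5 stood at 0.40 (adjusted p = 0.0907). Over all 17570 genes tested, 10.4% were called lower and 9.63% higher in cKO at a limma adjusted p under 0.05.

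Of the 7 genes measured, 6 were lower in cKO and 0 higher, against the 10.4% of all tested genes called lower. edgeR and DESeq2 on the recovered reads also called 6 lower and 0 higher, and at an unadjusted limma p under 0.05 there were 7 lower and 0 higher. All 7 passed the filter on low counts. The count of 6 becomes 4 when libraries are scaled to the germ cell genes Ddx4 and Dazl, as described further on. The log2 fold changes of the 7 ran from -2.38 to -0.43 with a median of -1.17, and the median over all tested genes was 0.01. In 7 of 7 the highest cKO library lay below the lowest control, a pattern that 18.4% of all tested genes showed. A fold change of at least 2 downward was reached by 4 of the 7, Spo11, Prdm9, Mei1 and Ccdc36, against 3.01% of all tested genes. Summed over the 7 genes, normalised read counts were 4608 to 5756 in the controls and 2295 to 2531 in cKO. In a whole organ, fewer cells of a type and less RNA per cell cannot be told apart.

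**Figure D1:**
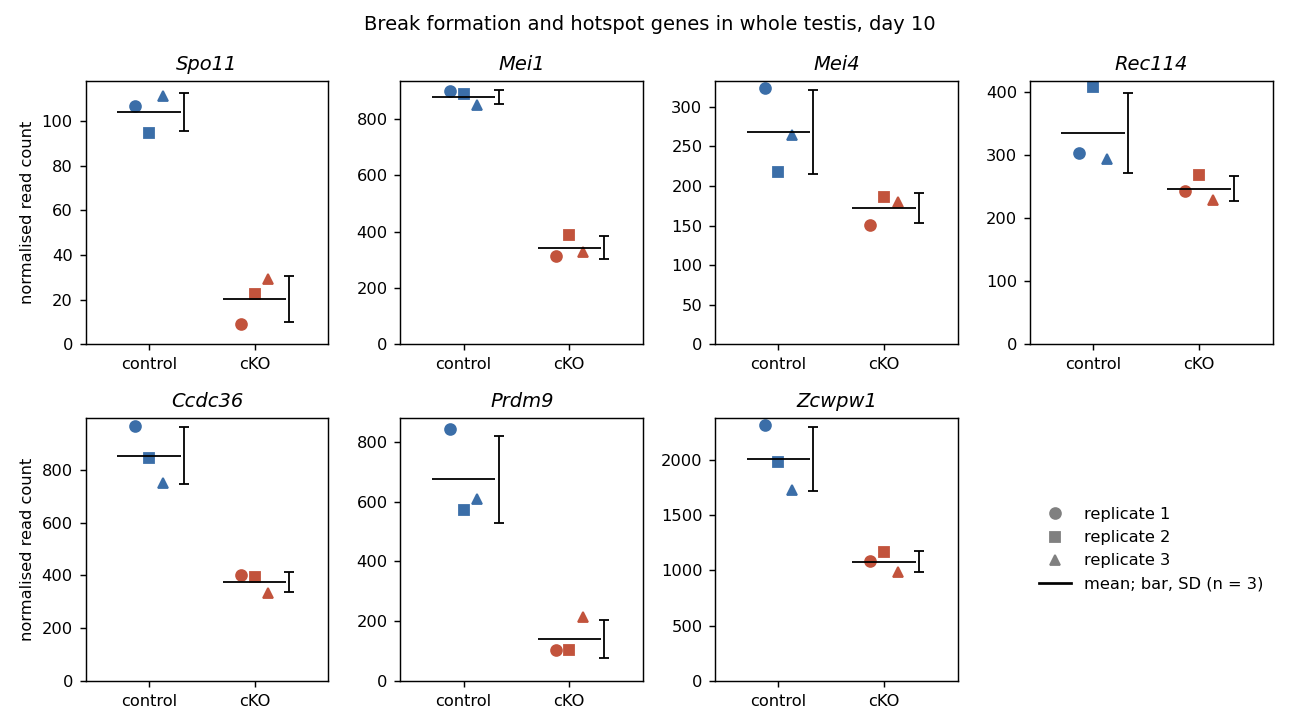
Normalised read count (vertical axis, from 0) of each of the 7 genes in the 3 control and 3 cKO libraries; marker shapes give the replicate, horizontal lines the mean and bars the SD (n = 3). In each panel the 3 cKO libraries sit below the 3 controls, with the largest fold changes for Spo11 and Prdm9 and the smallest for Rec114.

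Spo11, the gene for the subunit that cuts DNA, and Prdm9 had the largest changes, and their order depended on the setting. The normalised read counts of Spo11 were 107, 94.7 and 111 in control replicates 1 to 3 and 9.0, 22.5 and 29.1 in cKO replicates 1 to 3. The highest cKO library was thus well below the lowest control, and cKO replicate 1 stood lowest. The mean fell from 104 ± 8.50 to 20.2 ± 10.2 (SD, n = 3 per group), or 19.4% of control. The log2 fold change was -2.38 (SE 0.359, 95% interval -3.13 to -1.64, limma adjusted p = 9.95e-05), the 23rd lowest of 17570. These are few reads: 144, 87 and 102 recovered reads in the controls against 8, 28 and 24 in cKO. Most low counts in this table were even numbers (75.1% to 80.9% of counts from 1 to 20, by library), so the reads at this level were not single independent events and the counting error is larger than their number implies. Leaving out 1 library at a time gave -2.69 to -1.94. With a pseudocount of 10 the log2 fold change of Spo11 was -1.98 and that of Prdm9 -2.24, and without cKO replicate 1 they were -1.94 and -2.13, so that Prdm9 then came first.

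Mei1 and Ccdc36 fell by more than 2-fold. Mei1, which is needed for break formation, had normalised read counts of 899, 888 and 849 in control replicates 1 to 3 and of 312, 388 and 328 in cKO replicates 1 to 3. The controls lay close together, and the gap to cKO was many times their spread. The mean fell from 879 ± 26.0 to 343 ± 40.1 (SD, n = 3 per group), a log2 fold change of -1.36 (SE 0.126, limma adjusted p = 3.02e-07). Ccdc36 encodes IHO1, which ties the break machinery to the axis protein HORMAD1. It had normalised read counts of 967, 845 and 750 in the controls against 401, 396 and 333 in cKO, in the order of replicates. Both groups varied modestly and did not overlap. It fell to 44.1% of control, a log2 fold change of -1.17 (SE 0.131, limma adjusted p = 3.56e-06).

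Mei4 and Rec114, whose proteins bind each other, had the smallest log2 fold changes of the break machinery genes measured. Mei4 had 324, 218 and 264 normalised read counts in control replicates 1 to 3 and 151, 186 and 179 in cKO replicates 1 to 3. The lowest control, replicate 2, lay near the highest cKO library. The log2 fold change of -0.62 was called (SE 0.181, 95% interval -1.0 to -0.25, limma adjusted p = 0.0195). The call ended without control replicate 1 (-0.48, adjusted p = 0.104) or without cKO replicate 1 (-0.53, adjusted p = 0.0834).

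Rec114 had normalised read counts of 304, 408 and 293 in control replicates 1 to 3 and 243, 268 and 229 in cKO replicates 1 to 3. Control replicate 2 stood above the other controls, and the lowest control was close to the highest cKO library. The log2 fold change of -0.43 was not called (SE 0.162, 95% interval -0.76 to -0.09, limma adjusted p = 0.0681). It was called without control replicate 3 (-0.51, adjusted p = 0.0491) and when libraries were scaled to their totals (-0.51, adjusted p = 0.0345) or to the summed Sertoli cell markers (-0.86, adjusted p = 0.00932). In GENCODE M21, 26.9% of the exonic bases of Rec114 overlap exons of Nptn on the opposite strand. The strand setting of the counting is not given in the sources used here, so reads of the 2 genes may not have been kept apart. Nptn, a widely expressed adhesion protein gene, had far more reads, at 7830 ± 1075 normalised read counts in control against 8968 ± 491 in cKO (SD, n = 3 per group). It did not pass the test, with a log2 fold change of 0.20 and a limma adjusted p of 0.172. Its part in the value of Rec114 was not tested.

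Prdm9, the hotspot-choosing gene, fell nearly as far as Spo11. Its normalised read counts were 843, 572 and 609 in control replicates 1 to 3 and 102, 104 and 216 in cKO replicates 1 to 3. Among cKO libraries replicate 3 stood above the other two and still far below each control. The mean fell from 675 ± 147 to 141 ± 64.8 (SD, n = 3 per group), or 20.9% of control. The log2 fold change was -2.31 (SE 0.223, 95% interval -2.78 to -1.85, limma adjusted p = 5.33e-07), the 24th lowest of 17570, and it was -2.66 to -2.13 when 1 library at a time was left out.

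Zcwpw1, the reader of the PRDM9 marks, had the most reads of the 7. Its normalised read counts were 2313, 1977 and 1730 in control replicates 1 to 3 and 1086, 1166 and 980 in cKO replicates 1 to 3. The groups were well apart. The mean fell from 2007 ± 292 to 1077 ± 93.2 (SD, n = 3 per group), a log2 fold change of -0.89 (SE 0.113, limma adjusted p = 1.48e-05). In GENCODE M21, 8.21% of its exonic bases overlap exons of Pilra on the opposite strand, which had 11.2 ± 4.40 normalised read counts in control and 7.93 ± 6.96 in the cKO libraries (SD, n = 3 per group).

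Sequences around RefSeq starts of these genes were read because 6 of the 7 genes were called lower and the seventh also had a negative log2 fold change. RefSeq (GRCm38.p6) gave 9 windows of 300 bases, from 250 before to 50 after a start, for 7 of the 8 genes, with Ccdc36 listed as Iho1 and none for Spo11. By GENCODE M21 the only windows of Mei1 (chr15:82082226-82082525) and Rec114 lie inside the genes. Mei1 begins at 82069996 on the plus strand and Rec114 at 58743964 on the minus strand. The sequences before those GENCODE starts were not searched. The windows were searched on both strands for 4 short words: CNCCTCAG, a word reported at promoters bound by STRA8, the inducer of meiotic entry; TCCCGC, the core of E2F sites; the E-box CACGTG; and the cAMP response element TGACGTCA. Both windows with more than 1 match are shown, at the measured genes with the second largest and the smallest change. Capitals mark the matches.
Prdm9, chr17:15564305-15564604, minus strand, GRCm38.p6: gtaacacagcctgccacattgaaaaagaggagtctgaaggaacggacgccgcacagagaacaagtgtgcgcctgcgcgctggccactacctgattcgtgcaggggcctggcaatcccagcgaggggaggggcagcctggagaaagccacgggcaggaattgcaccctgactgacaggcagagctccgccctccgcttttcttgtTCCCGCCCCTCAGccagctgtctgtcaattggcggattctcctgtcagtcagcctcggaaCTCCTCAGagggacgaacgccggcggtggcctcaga
Rec114, chr9:58741510-58741809, minus strand, GRCm38.p6: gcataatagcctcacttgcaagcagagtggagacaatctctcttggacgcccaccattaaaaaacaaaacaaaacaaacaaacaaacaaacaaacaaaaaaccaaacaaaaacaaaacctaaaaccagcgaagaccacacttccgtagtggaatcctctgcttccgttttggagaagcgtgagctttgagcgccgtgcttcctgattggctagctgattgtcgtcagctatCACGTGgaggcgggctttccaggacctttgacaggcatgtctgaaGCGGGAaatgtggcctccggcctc
This Prdm9 window holds CNCCTCAG at 2 places, starting 41 bases before and 14 bases after the start. A TCCCGC that begins 46 bases before the start shares its last base with the first of them, so that they print as 1 run of capitals. Of all 32851 RefSeq windows of this length, 7.94% hold CNCCTCAG and 19.98% hold TCCCGC. Among the 9 windows, 1 held CNCCTCAG, 3 held TCCCGC, 1 held CACGTG and 0 held TGACGTCA. The remaining TCCCGC match was 230 bases before another start of Prdm9, on the reverse strand. In the Rec114 window CACGTG starts 19 bases before the start and TCCCGC, on the reverse strand, 26 bases after it; 7.15% of all windows hold CACGTG and 1.79% hold TGACGTCA. A match is a description of the letters, not a bound site, and a window with no match says only that these words are not in it.

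Whether the 7 genes changed by different amounts could not be settled by the test used for it here. For each gene and library, the log2 value was set against the mean log2 value of the other 6, and the groups were compared by an exact 2-sided permutation test. With 3 libraries against 3 this exact test cannot go below p = 0.1, so it could not have passed 0.05 for any gene. Spo11 went down by 1.25 and Prdm9 by 1.17 log2 units more than the others, while Rec114 stood 1.03, Mei4 0.80 and Zcwpw1 0.49 log2 units higher relative to the others. For these 5 the exact permutation p was 0.1 (adjusted p = 0.14 over 7 genes). The differences of Mei1 (-0.06, exact permutation p = 0.6, adjusted p = 0.6) and Ccdc36 (0.16, exact permutation p = 0.5, adjusted p = 0.583) were nearer to 0. Relative to the other 6, Spo11 was lower in each cKO library (-4.70, -3.69 and -3.34 log2 units in replicates 1 to 3) than in each control (-2.78, -2.75 and -2.44). The limma 95% intervals of Spo11 (-3.13 to -1.64) and Prdm9 (-2.78 to -1.85) did not meet those of Mei4 (-1.0 to -0.25) and Rec114 (-0.76 to -0.09). These genes are the extremes of the 7, and their intervals are no test of the difference.

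Levels of different genes were compared per kilobase of exon, using GENCODE M21 lengths of all annotated exons of a gene merged. The level of Rec114 may include reads of Nptn, as described above. In the controls the order was Zcwpw1 (352 ± 51.3 normalised read counts per kb), Ccdc36 (295 ± 37.6), Rec114 (262 ± 49.7), Mei1 (185 ± 5.48), Prdm9 (157 ± 34.1), Mei4 (65.2 ± 12.9) and Spo11 (26.6 ± 2.17; SD, n = 3 for each). Neighbours overlapped in range except between Rec114 and Mei1, Prdm9 and Mei4, and Mei4 and Spo11. In cKO the levels per kb were 193 ± 15.6 for Rec114, 189 ± 16.4 for Zcwpw1, 130 ± 13.02 for Ccdc36, 72.3 ± 8.45 for Mei1, 41.8 ± 4.57 for Mei4, 32.7 ± 15.05 for Prdm9 and 5.15 ± 2.61 for Spo11 (SD, n = 3 for each). Rec114 and Zcwpw1 overlapped there, as did Mei4 and Prdm9, and the other neighbours did not. Prdm9 stood above Mei4 in the controls without overlap. In cKO replicates 1 and 2 it was below Mei4 (23.8 against 36.6 and 24.2 against 45.2 per kb), and in replicate 3 above it (50.1 against 43.5). Spo11, the catalytic gene, had the lowest level in both groups.

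**Figure D2:**
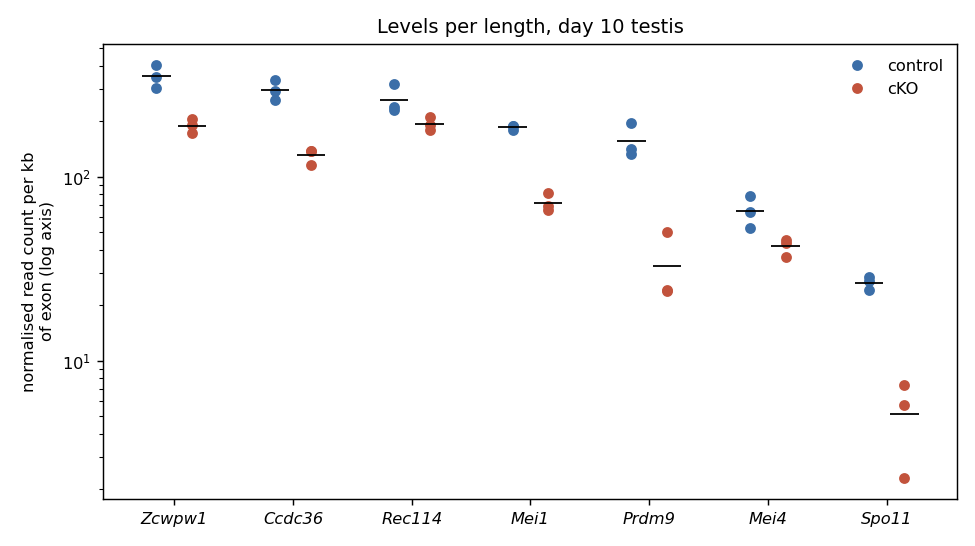
Normalised read count per kb of exon (log axis) for the 7 genes, ordered by their control mean; points are the 3 libraries of each group and lines the means. Spo11 is lowest in both groups, at 26.6 in control and 5.15 in cKO, and Prdm9 comes down to the range of Mei4 in cKO.

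What the libraries were scaled to changed the size of these differences and, for Mei4 and Rec114, their sign. Ddx4 and Dazl, genes of germ cells as a whole, were themselves lower in cKO (log2 fold changes -0.43 and -0.80, limma adjusted p = 0.0101 and 7.80e-05), and their summed level was 13868 to 20161 normalised read counts in the controls and 9347 to 10729 in cKO. Dazl made up most of this sum, with a control mean of 12733 against 3806 for Ddx4. Scaled to this sum, which moved the median of all tested genes to 0.71, Spo11 (-1.72), Prdm9 (-1.61), Mei1 (-0.65) and Ccdc36 (-0.47) were still called lower, 4 of 7 against 0.933% of all tested genes under this scaling (65.8% were higher). Zcwpw1 was not called (-0.18, adjusted p = 0.411), nor were Mei4 (0.08, adjusted p = 0.786) and Rec114 (0.28, adjusted p = 0.3), which turned positive. As a percentage of the Ddx4 and Dazl sum, Prdm9 was at 4.18, 4.12 and 3.91 in control replicates 1 to 3 and at 1.10, 0.973 and 2.17 in cKO replicates 1 to 3. Mei4 was at 1.61, 1.57 and 1.69 in the controls against 1.61, 1.74 and 1.81 in cKO, so its groups overlapped on this scale whereas those of Prdm9 stayed apart. Spo11 was at 0.528, 0.683 and 0.713 in the controls against 0.0963, 0.210 and 0.293 in cKO, with no overlap.

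The same was done with other reference lists. Scaled to 10 markers of undifferentiated spermatogonia, whose sum was 13633 to 15534 in the controls and 14786 to 15908 in cKO, the same 6 genes were called lower, with Spo11 at -2.43, Prdm9 at -2.36 and Rec114 not called (-0.48). Scaled to 12 Sertoli cell markers, which moved the median of all tested genes to -0.42, all 7 were called lower, from -2.79 for Spo11 to -0.86 for Rec114, against 22.5% of all tested genes lower and 0.0740% higher.

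**Figure D3:**
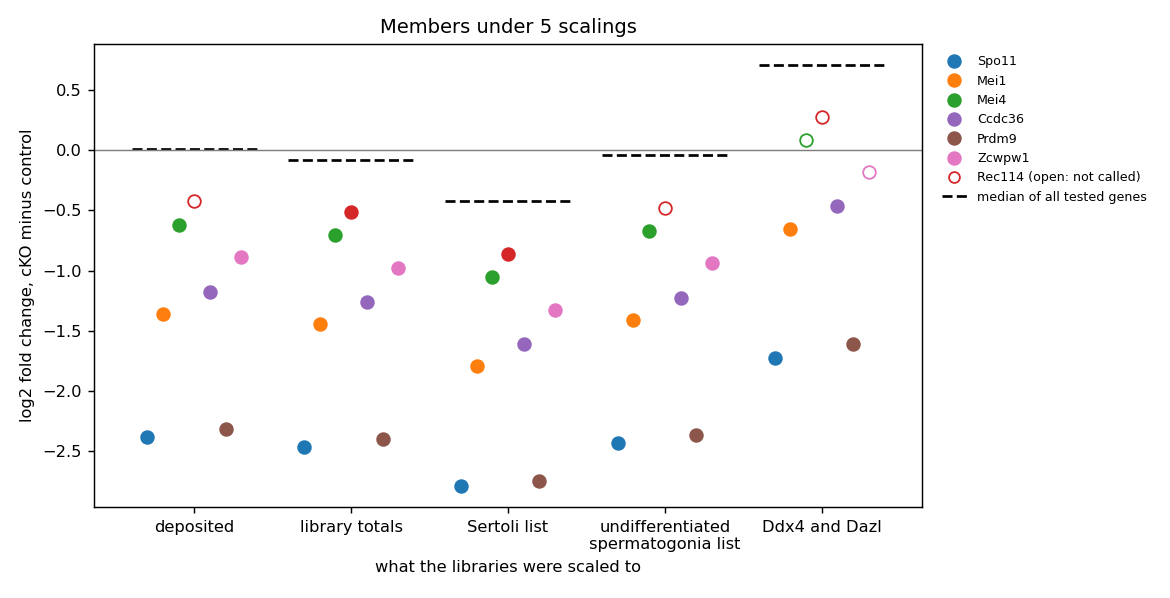
Log2 fold change, cKO minus control (vertical axis), of the 7 genes under 5 scalings of the libraries (horizontal axis); filled points were called at a limma adjusted p under 0.05, open points were not, and dashed lines give the median of all tested genes. Spo11 and Prdm9 lie lowest under each of the 5 scalings, and Mei4 and Rec114 cross 0 under scaling to Ddx4 and Dazl, where the median of all genes is 0.71.

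The partners of the break machinery and the axis it sits on were lower too. Of 11 such genes 11 were called lower and 0 higher, against 10.4% of all tested genes called lower. The median of their log2 fold changes was -1.39. Gm960, which encodes TOPOVIBL, the partner of SPO11, fell from 379 ± 34.3 to 168 ± 20.3 normalised read counts (SD, n = 3 per group; log2 fold change -1.16, SE 0.161, limma adjusted p = 4.05e-05). The change was smaller than that of Spo11, a difference that was not tested. Hormad1, the axis gene whose protein recruits IHO1, had a log2 fold change of -1.39, and its relative Hormad2 one of -1.61. The axis genes Sycp2 (-1.55) and Sycp3 (-1.33) and the cohesin genes Stag3 (-1.42), Smc1b (-1.40), Rad21l (-1.66) and Rec8 (-0.79) fell as well. Trip13, the ATPase gene that removes HORMA proteins, changed least of them (-0.39), and its call ended when control replicate 1 (adjusted p = 0.0569), cKO replicate 1 (0.0508) or cKO replicate 3 (0.0751) was left out. Scaled to Ddx4 and Dazl, which put the median of all tested genes at 0.71, Trip13 was at 0.32, and the calls of Gm960 (-0.46, adjusted p = 0.0908), Rec8 (-0.08, adjusted p = 0.736) and Atm (-0.02, adjusted p = 0.922) ended. Atm, the kinase gene that limits the number of breaks, was at -0.73.

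Genes listed here beside Prdm9 were mostly lower. Of 7 listed, 6 were tested, 4 were lower and 0 higher, with a median of -0.38, against 10.4% of all tested genes called lower. Zcwpw2, the relative of Zcwpw1, fell from 126 ± 13.7 to 63.4 ± 13.8 normalised read counts (SD, n = 3 per group; log2 fold change -0.98, SE 0.24, limma adjusted p = 0.00676). Hells, a chromatin remodeller that opens hotspots with PRDM9, was at -0.68, and Cxxc1 and Ewsr1, whose products bind PRDM9, were at -0.42 and -0.35. Scaled to Ddx4 and Dazl, with the median of all tested genes at 0.71, these 3 were at 0.0252, 0.29 and 0.36, and the call of Zcwpw2 ended (-0.29, adjusted p = 0.422). Ehmt2 (-0.24, limma adjusted p = 0.121) and Cdyl (0.14, limma adjusted p = 0.349) were not called. The calls of Cxxc1 without cKO replicate 3 (adjusted p = 0.0613) and of Ewsr1 without control replicate 1 or any 1 of the cKO libraries (adjusted p = 0.0572, 0.0663, 0.0546 and 0.056) were lost. Morc2b was too low to be tested, with 3.94 ± 6.83 normalised read counts in control. All of these came from control replicate 1 (11.8), and every other library of either group was at 0.

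Genes that act before and after the break were counted the same way. All 4 genes of meiotic entry were lower, with a median of -1.95: Stra8 (-1.73), Gm4969, which encodes the STRA8 partner MEIOSIN (-2.16), Gm1564, listed elsewhere as Meioc (-2.22), and Ythdc2 (-0.80), whose call ended with scaling to Ddx4 and Dazl (-0.09, adjusted p = 0.684). Of 5 genes that trim the broken ends 4 were lower and 0 higher (median -0.43), with Exo1 (-0.63) and Rbbp8 (-0.45) changing most; the call of Rbbp8 ended without cKO replicate 1 (adjusted p = 0.0546). Of 11 genes of strand exchange 9 were lower and 0 higher (median -0.80), led by Meiob (-2.42) and its partner Spata22 (-1.59). Meiob, like Spo11, had few recovered reads, with 125, 63 and 96 in control replicates 1 to 3 and 14, 8 and 24 in cKO replicates 1 to 3. Over these 5 lists 32 of 37 tested genes were lower, against 10.4% of all tested genes. Scaled to Ddx4 and Dazl, 14 were lower and 3 higher, where 0.933% of all tested genes were lower and 65.8% higher. These lists, too, were drawn up with earlier results of these data known.

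**Figure D4:**
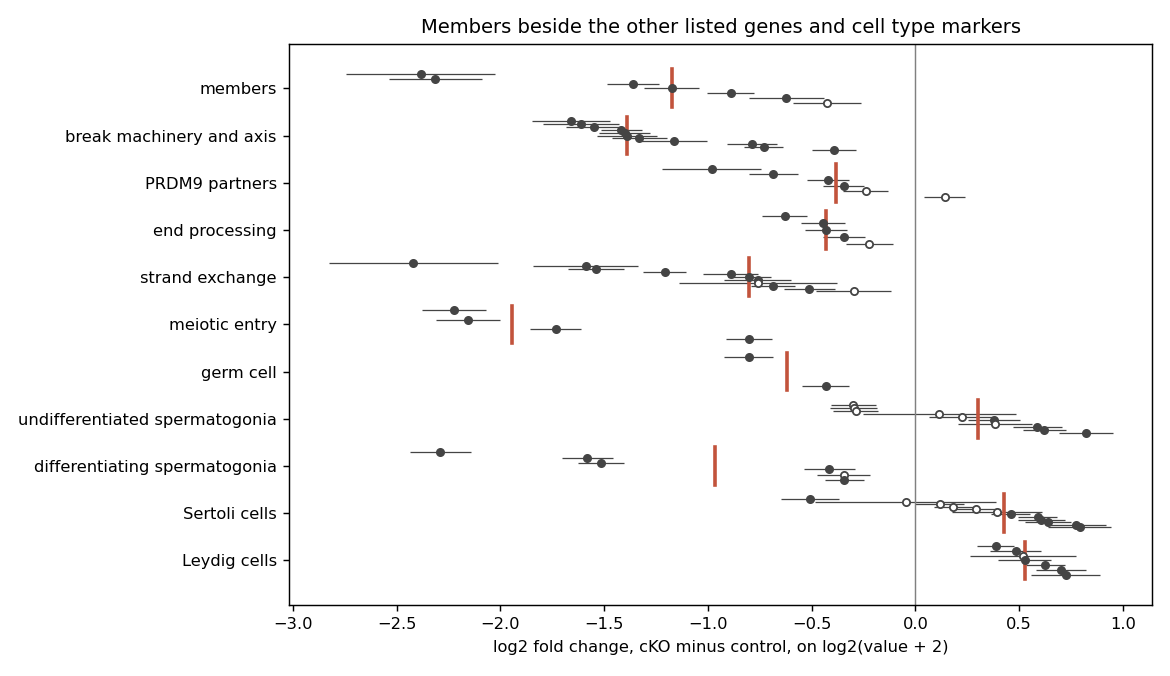
Log2 fold change, cKO minus control, on the log2(value + 2) scale (horizontal axis) for each tested gene of the lists named on the vertical axis; filled points were called at a limma adjusted p under 0.05, open points were not, thin bars are the SE and red bars the list medians. Spo11 and Prdm9 lie at the far left of the members, beside the genes of meiotic entry, and markers of Sertoli and Leydig cells lie mostly to the right of 0.

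Many markers of the cells in the organ also differed between the groups. The counts below stand beside 10.4% of all tested genes called lower and 9.63% called higher. Of 6 markers of differentiating spermatogonia 5 were lower and 0 higher, and their sum was 18264 to 19684 normalised read counts in the controls and 10260 to 11799 in cKO. Of 10 markers of undifferentiated spermatogonia 4 were higher and 0 lower by limma, while edgeR and DESeq2 each called 4 higher and 1 lower, and an unadjusted limma p under 0.05 gave 5 higher and 3 lower. Of 12 Sertoli cell markers 6 were higher and 1 lower, with sums of 269338 to 405431 in the controls and 431177 to 504985 in cKO, and of 7 Leydig cell markers 6 were higher and 0 lower (14228 to 19177 against 21920 to 26088). Clu supplied most of the Sertoli sums, with a mean of 222378 in control and 285767 in cKO. Of 6 macrophage markers 4 were higher and 0 lower (4554 to 5997 in the controls, 5906 to 7142 in cKO). Of 5 peritubular myoid markers 2 were lower and 0 higher (22824 to 24347, then 21361 to 22748), and of 5 endothelial markers 1 was higher and 1 lower (6733 to 8175, then 8166 to 9024). In these 7 lists and in that of Ddx4 and Dazl no marker was at 0 in any library. The 10 markers of late spermatocytes and spermatids summed to only 246 to 382 in the controls and 177 to 246 in cKO, with Acr, Acrv1, Pgk2, Prm1 and Prm2 at 0 in at least 1 library, and of the 5 tested 0 were called by limma, edgeR or DESeq2 and 1 was lower at an unadjusted limma p under 0.05. The part of these shifts in the values of the break formation genes was not tested.

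Outside all lists, the 5 tested genes whose log2 values over the 6 libraries were most like the mean standardised pattern of the 7 were Cep83, Plekha7, Mok, Adarb1 and Gpr160, with Pearson r from 0.997 to 0.999. These 6 points are 2 groups of libraries, and r says mainly that each gene separated them in the same direction with a similar order inside the groups. Their log2 fold changes were -0.69 for Cep83, -0.61 for Plekha7, -0.82 for Mok, -0.87 for Adarb1 and -0.94 for Gpr160, and each was called lower (limma adjusted p = 2.78e-05, 0.000739, 0.00347, 1.02e-05 and 0.00162, in that order). The genes were picked on these same libraries, for a pattern with every cKO library below every control. Their direction and calls therefore largely follow from the picking and are no separate result.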

How the data were processed

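RNA from whole testes was measured in 6 libraries, 3 control and 3 cKO, grouped by their titles. Per the submitters' processing notes the tools included StringTie 1.3.1 and RSEM, whose roles are not stated; for the aligner, genome build and strandedness, nothing is given in the sources used here. The deposited values are a signal scaled by the authors: in each column 100% were whole multiples of 1 step (tolerance 1e-06), whose inverse equalled the recomputed median-of-ratios size factor (0.825 to 1.35), so whole reads were recovered.

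The main test was limma 3.58.1 (R 4.3.3) on log2(value + 2), with a prior variance that follows the intensity (2-sided), and Benjamini-Hochberg adjustment over the 17570 genes kept by filterByExpr (minimum count 10; 4649 were removed) and a threshold of 0.05. Fold changes on this scale understate the change of low genes. edgeR 4.0.16 and DESeq2 1.42.0 were run on the recovered reads as alternatives. Scripts were tested on simulated counts. The labels do not tie the 3 libraries of a group to separate animals; the p-values reflect only how far these samples spread, possibly for technical reasons.

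All 8 genes, those of the lists for break machinery, PRDM9 partners and meiotic entry, the 2 most changed of each other list where given, and the 5 most alike were named by rule. Genes and lists were chosen with earlier results of these data known.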

Additional observations from a re-analysis of the deposited data

How the results depend on the processing

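The number of break formation genes called lower was 6 with pseudocounts of 0.5 and 10, without the filter, with edgeR and with DESeq2; it was 4 under scaling to Ddx4 and Dazl, 7 under scaling to library totals or to the Sertoli markers, and 5 to 7 when 1 library at a time was left out, and 0 were called higher under each of these settings. Spo11, Mei1, Ccdc36 and Prdm9 were called lower under all 16 alternatives. Scaling to Ddx4 and Dazl, which moved the median of all genes to 0.71, gave 14 lower and 3 higher pathway genes, against 32 and 0. It turned the sign of Mei4 (0.0808), Rec114 (0.28), Trip13 (0.32), Hells (0.0252), Cxxc1 (0.29), Ewsr1 (0.36), Ehmt2 (0.47), Exo1 (0.0791), Rbbp8 (0.26) and Eif5 (0.40), and scaling to the Sertoli markers turned that of Cdyl (-0.29). Over the whole table, 1829 genes were lower and 1692 higher. These became 164 and 11568 with Ddx4 and Dazl, 3949 and 13 with the Sertoli markers, 2494 and 806 with library totals, and 1741 and 536 with the undifferentiated markers. Leaving out 1 library gave 918 to 1747 higher. When 1 library was left out, the difference from the other genes ran from -0.121 to 0.0498 for Mei1, turning positive without cKO replicate 3, and from -0.0190 to 0.334 for Ccdc36, turning negative without cKO replicate 1. The causes were not tested.

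The labels do not pair the replicate numbers across the groups. Deviations of same-numbered libraries correlated only weakly (-0.0379, -0.0023 and 0.0551 for replicates 1 to 3). With 3 libraries per group this cannot show that pairing is absent. With the replicate block 6 break formation genes were lower, and 1771 genes were lower and 1535 higher over the table; not every library correlated best with its own number. Among the break formation genes measured, depth limits Spo11 most, with 8 recovered reads in 1 library.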
